A study of Saccharomyces cerevisiae with 6 samples.

Results

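RNA that came down with Mex67 from yeast kept at 25 °C was set against RNA from a mock precipitation of cells without a tag at the same temperature. The comparison is the log2 value of the Mex67 array minus that of the no tag array, and it uses 2 of the 6 arrays of the study. The table held values for 5667 loci of Saccharomyces cerevisiae, baker's yeast, and all of them were taken in. The Mex67 cells were strain HKY1266, and the no tag cells are labelled HKY36/HKY381, which names a pair of strains without saying whether they were pooled. An Npl3 precipitate from strain HKY157 and the 42 °C arrays of all 3 kinds make up the rest of the study. All cells grew in YPD, a rich medium, at 25 °C, were then held for 30 min at 25 °C or 42 °C, and were crosslinked with UV light. Every lysate, that of the no tag cells included, met beads with a c-myc antibody and GFP-Trap beads. The labels give neither the genotypes of the strains nor the tag that Mex67 carried. Each group has 1 array, so no difference has a replicate check and no p-value was computed.

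Mex67 is the main export receptor for mRNA in yeast. With its partner Mtr2 it is loaded onto packaged transcripts by adaptor proteins such as Npl3, Nab2 and Yra1, and it passes through the nuclear pore by binding the FG repeats of nucleoporins. At the cytoplasmic face the helicase Dbp5 and its activator Gle1 release it from the mRNA. Transcripts that are not properly processed are held back and degraded by the nuclear exosome and its cofactors. The study's title and design ask which mRNAs the export proteins bind in normal growth and in heat stress, and the 25 °C pair of arrays is the normal growth side of that question for Mex67.

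A locus was counted when its log2 difference was at least 1 in size, which is 2-fold, and when it lay above a background floor on at least 1 of the arrays. The floor was the 95th percentile of the probe sets for S. pombe, a fission yeast whose RNA is not named in the labels, and it was 5.12 on the Mex67 array and 5.09 on the no tag array. Median levels over the 5667 loci were 11.17 on the Mex67 array and 11.14 on the no tag array. None of the 4999 S. pombe probe sets differed 2-fold, and their differences had an SD of 0.22. The control RNAs spiked in ahead of labelling had a median of 6.35 on the Mex67 array and 6.65 on the no tag array. At 42 °C this median was 5.01 with Mex67 and 6.64 without a tag, so the 42 °C pair differed more in this measure than the 25 °C pair did. The 17 ribosomal RNA probe sets had a median of 14.56 with Mex67 and 14.57 without a tag at 25 °C. The deposited values are normalized, so a difference places an mRNA among the others of its array and says nothing of the total RNA brought down. In bulk precipitates, fewer cells that hold an mRNA and less of that mRNA per cell cannot be told apart, and neither can a difference between the strains and a difference in binding.

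Most mRNAs lay at nearly the same level in both precipitates. The median difference over the 5632 loci above the floor was 0.03, and 4762 of them, 84.6%, lay within 0.5 of 0. At least 2-fold higher with Mex67 were 42 loci, which is 0.746% of those above the floor, and 37 were at least 2-fold lower, which is 0.657%. Together these 79 loci make up 1.4%. At 42 °C, on another pair of arrays from the same strains, 394 loci were at least 2-fold higher with Mex67 (6.97%) and 327 at least 2-fold lower (5.79%). Near the threshold at 25 °C, 26 loci lay within 0.1 below it and 5 within 0.1 above it on the higher side, and 13 lay on each side of it among the lower ones.

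**Figure D1:**
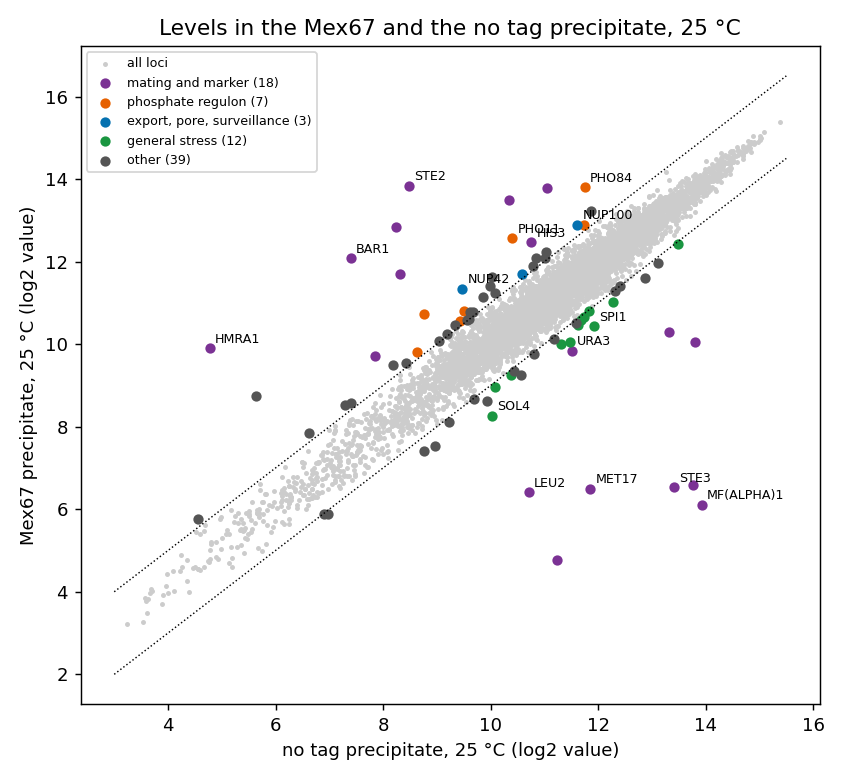
Log2 level of each S. cerevisiae locus in the Mex67 precipitate (vertical axis) against its log2 level in the no tag precipitate (horizontal axis) at 25 °C, 1 array each, with lines at 2-fold and the lists marked by colour. Most loci sit close to the diagonal, with a median difference of 0.03, and the a-specific and alpha-specific genes stand far from it on opposite sides.

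Among the 79 counted loci, 18 belong to the mating type lists or to the auxotrophic markers, 9 on each side. They are described first as differences between the strains, since a haploid cell's mating type and its marker alleles fix the mRNAs it makes. The genes that only a cells express were all high with Mex67: 7 of 7 were at least 2-fold higher and the median difference was 3.39. STE2, the receptor for alpha-factor, was at 13.84 with Mex67 and at 8.48 without a tag, a difference of 5.36. BAR1, the protease that degrades alpha-factor, was at 12.09 with Mex67 and 7.40 without a tag. STE6, the exporter of a-factor, was at 12.83 with Mex67 against 8.23 in the no tag precipitate. AGA2, the adhesion subunit of a-agglutinin, was at 11.71 with Mex67 and 8.32 without a tag, and ASG7 was at 9.71 with Mex67 and 7.84 without a tag. The a-factor genes MFA2 and MFA1 differed by 3.17 and 2.75, with MFA2 at 13.50 with Mex67 and 10.33 without a tag, and MFA1 at 13.79 with Mex67 and 11.04 without a tag. The no tag array had signal well above its floor for each of the 7 a-specific genes.

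The genes of alpha cells lay the other way, with 5 of 5 at least 2-fold lower with Mex67 and a median of -6.88. MF(ALPHA)1, the main alpha-factor gene, was at 6.10 with Mex67 and 13.93 without a tag, a difference of -7.82. The second alpha-factor gene, MF(ALPHA)2, was at 6.58 with Mex67 and 13.76 without a tag. STE3, the a-factor receptor, was at 6.53 with Mex67 against 13.41 in the no tag precipitate. SAG1, the alpha-agglutinin gene, was at 10.04 with Mex67 and 13.80 without a tag, and AFB1, which encodes a blocker of a-factor, was at 10.29 with Mex67 and 13.33 without a tag. All 5 were above the floor on the Mex67 array.

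At the mating loci themselves, the probe set for HMRA1, the a1 regulator, was at 9.90 with Mex67 and below the floor, at 4.77, without a tag. Against the floor this is a difference of at least 4.81. HMLALPHA1, whose probe set matches several transcripts, was below the floor with Mex67, at 4.76, and at 11.24 without a tag, so that against the floor its difference was -6.13 or lower. The Npl3 array had HMRA1 at 12.77 and HMLALPHA1 at 4.67, so it lay on the same side as the Mex67 array for both. HMRA2, on a probe set that matches several transcripts, was at 10.93 with Mex67 and 11.89 without a tag, a difference of -0.96. The probe sets for genes that both haploid types use, for mating and for the pheromone response, held no counted member in either direction, and the median over the 40 genes was -0.06. Their lowest members were PRM1 at -0.80 and PRM5 at -0.68, and the highest were the kinase genes FUS3 at 0.68 and STE20 at 0.67.

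Of the 10 auxotrophic marker genes listed, 9 had a probe set, and 4 of these were counted. MET17, an enzyme of methionine synthesis, was at 6.49 with Mex67 and 11.85 without a tag, a difference of -5.36. LEU2, an enzyme of leucine synthesis, was at 6.41 with Mex67, at 9.74 with Npl3 and at 10.71 without a tag. URA3, an enzyme of uracil synthesis, was at 9.84 with Mex67, 14.55 with Npl3 and 11.50 without a tag, so the Npl3 array lay above the no tag array and the Mex67 array below it. HIS3, an enzyme of histidine synthesis, was high with Mex67, at 12.47 against 10.76 without a tag. The other 5 markers were not counted: HIS4 was at -0.87, ADE2 at -0.55, CAN1 at -0.38, LYS2 at -0.19 and ADE8 at 0.22. Separate control probe sets along URA3 gave differences of -1.40, -1.70 and -1.77, close to the -1.67 of the gene's own probe set. TIM9, the gene beside URA3, was at 10.67 with Mex67 and 11.55 without a tag, a difference of -0.88. The genes beside MET17 differed less, with HRI1 at -0.31 and ACO1 at -0.48, as did those beside HIS3, with MRM1 at 0.44 and DED1 at 0.36.

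Other genes of the methionine, leucine and uracil pathways stayed within 2-fold. Of 31 further genes of sulfur and methionine metabolism, none was counted, and the median was -0.16. MET6, the methionine synthase gene, was nearest at -0.99, followed by the permease genes SAM3 at -0.92 and MUP1 at -0.82 and by MET8 at 0.80. The 12 genes of leucine and branched chain synthesis had a median of -0.06 and the 13 of pyrimidine synthesis one of -0.18, with 0 counted in either list. Among 45 genes of other amino acid synthesis, GLN1, glutamine synthetase, was the counted one: it was at 11.60 with Mex67 and 12.87 without a tag, and 32 of the 45 lay below 0. DIP5, the permease for glutamate and aspartate, was the counted one of 22 amino acid permeases, at 11.97 with Mex67 and 13.11 without a tag, and 19 of the 22 lay below 0, with a median of -0.34.

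Without the mating and marker lists, 33 loci were at least 2-fold higher and 28 at least 2-fold lower. The phosphate regulon held 7 of the 33. These genes are switched on by the transcription factor Pho4 when phosphate is short, and their products capture phosphate, take it up and store it as polyphosphate. Of 18 genes listed, 17 were measured, 7 were at least 2-fold higher and 0 lower. Their median difference was 0.56, and 16 lay above 0. Over all loci above the floor the median was 0.03 and 2974 of 5632 lay above 0. Among those 5632 loci, 0.746% were at least 2-fold higher and 0.657% lower.

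Among secreted phosphatases, PHO11 was at 12.57 with Mex67, 9.44 with Npl3 and 10.40 without a tag, a difference from the control of 2.17, on a probe set that matches several transcripts. PHO5, the main repressible acid phosphatase, was at 10.80 with Mex67, 7.76 with Npl3 and 9.51 without a tag. Both mRNAs thus lay highest with Mex67 and lowest with Npl3 at 25 °C. PHO3, the acid phosphatase made when phosphate is plentiful, was the member below 0, at -0.33. Among transporters, PHO84, the high-affinity phosphate transporter, was at 13.80 with Mex67, 10.21 with Npl3 and 11.75 without a tag, a difference of 2.05. PHO89, the sodium-coupled phosphate transporter, was at 9.80 with Mex67, 8.93 with Npl3 and 8.64 without a tag. SPL2, which curbs low-affinity phosphate uptake, was at 10.73 with Mex67, 8.18 with Npl3 and 8.77 without a tag, a difference of 1.96. These 3 mRNAs were again highest in the Mex67 precipitate.

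Of the vacuolar polyphosphate synthase, VTC3 was at 12.89 with Mex67 and 11.75 without a tag, while VTC1 was at 0.74, VTC4 at 0.33 and VTC2 at 0.08. PHM6 was at 10.57 with Mex67 and 9.44 without a tag, and its difference was 0.99 with the coding length trend removed. The regulators PHO4, PHO81, the inhibitor of the Pho85 kinase, and PHO2, the partner of Pho4, were not counted, with differences of 0.56, 0.24 and 0.02. The counted members thus included transporters and phosphatases, SPL2, PHM6 and 1 subunit of the polyphosphate synthase. Close to PHO11 on its chromosome, YAR066W, whose probe set also matches several transcripts, was at 8.53 with Mex67 and 7.28 without a tag, and YAR068W differed by 0.83.

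**Figure D2:**
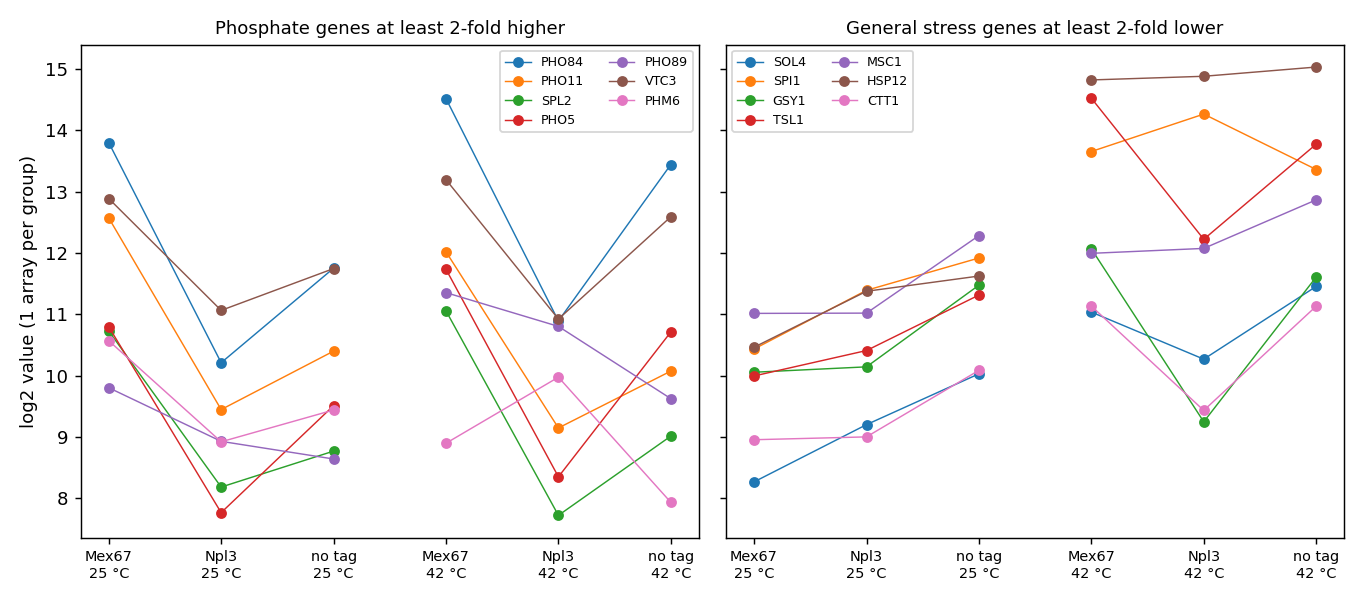
Log2 levels of counted phosphate and general stress genes in the Mex67, Npl3 and no tag precipitates at 25 °C and 42 °C, 1 array per point. Of the 12 counted stress genes, SOL4, SPI1, GSY1, TSL1, MSC1, HSP12 and CTT1 are drawn. The 7 phosphate genes lie higher with Mex67 than without a tag at both temperatures. The stress genes drawn lie lower with Mex67 at 25 °C and differ by between -0.87 and 0.75 at 42 °C.

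The mRNAs of the export machinery were examined as a group of their own, since Mex67 belongs to it. Of 37 measured genes for export factors, 2 were at least 2-fold higher, 0 were lower and 28 lay above 0, and the median was 0.16. These 2 are NUP42 and NAB3, which are also in the pore list and the surveillance list, so that with NUP100 the 3 lists hold 3 counted genes. Over all loci above the floor, 0.746% were at least 2-fold higher and 0.657% lower. MEX67 mRNA itself was at 11.30 with Mex67 and 11.65 without a tag, a difference of -0.35, among the lowest of the list. NPL3 mRNA was at 14.14 with Mex67 and 13.98 without a tag. NAB2, an adaptor that binds poly(A) tails, was at 12.99 with Mex67 and 12.43 without a tag, SEM1 differed by 0.67 and SAC3, the scaffold of the TREX-2 complex, by 0.44. At the low end were CRM1, the exportin of proteins with a nuclear export signal, at -0.40, HMT1, an arginine methyltransferase that modifies Npl3, at -0.35, GLC7, a phosphatase that acts on Npl3, at -0.33, and HRP1 at -0.26. The adaptor and receptor mRNAs named here thus all stayed within 2-fold.

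The 33 nuclear pore components had a median of 0.06, and 2 members passed the 2-fold line upward and 0 downward. Of all loci above the floor, 0.746% passed it upward and 0.657% downward. NUP42, a nucleoporin on the cytoplasmic side that binds Gle1, was at 11.34 with Mex67, 8.91 with Npl3 and 9.48 without a tag, a difference of 1.87. NUP100, a GLFG repeat nucleoporin of the central channel, was at 12.90 with Mex67, 10.91 with Npl3 and 11.60 without a tag, a difference of 1.29. NUP116, its paralog, was just under the threshold, at 12.99 with Mex67 and 12.02 without a tag. In both counted genes the Npl3 array had the lowest of the 3 levels. This was not particular to them, as the list's median of Npl3 minus no tag at 25 °C was -0.64. The next highest of the list were MLP2 at 0.79 and NUP57 at 0.75, and the lowest were POM33 at -0.72, POM152 at -0.63, NUP120 at -0.47, NUP133 at -0.40 and NUP188 at -0.39.

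NUP42, NUP100, NUP116 and NUP57 encode FG repeats, the protein stretches to which Mex67 binds in the pore, and the list was therefore divided by them after its values had been seen. The 13 FG repeat members had a median of 0.55 and 11 of them lay above 0. The 20 members without FG repeats had a median of -0.21 and 7 lay above 0. At 42 °C the medians were 0.64 and -0.32. There 4 FG repeat members were at least 2-fold higher and 0 lower, and of the members without FG repeats 0 were higher and 2 lower. Of all loci above the floor at 42 °C, 6.97% were at least 2-fold higher and 5.79% lower. The highest member without FG repeats at 25 °C was MLP2, at 0.79. Since the division followed the values, the gap between the 25 °C medians is partly built in, and nothing is concluded from it. The 42 °C arrays share their strains with the 25 °C arrays. These values concern the mRNAs and not the proteins at the pore.

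Genes of nuclear RNA surveillance, 26 of 29 measured, had a median of 0.18 and 19 members above 0. In this list 1 was counted as higher and 0 as lower, beside 0.746% and 0.657% of all loci above the floor. The counted one was NAB3, an RNA-binding subunit of the complex that ends transcription of noncoding and some coding RNAs, at 11.70 with Mex67 and 10.58 without a tag. AIR2 and AIR1, RNA-binding subunits of the TRAMP complex, were at 0.74 and 0.68. MPP6 and LRP1, cofactors of the nuclear exosome, were at 0.53 and 0.45. The lowest were STO1, the large subunit of the cap-binding complex, at -0.45, the exonuclease genes XRN1 at -0.18 and RAT1 at -0.11, RRP6, the nuclear exosome's own nuclease, at -0.11, and RRP42 at -0.04.

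**Figure D3:**
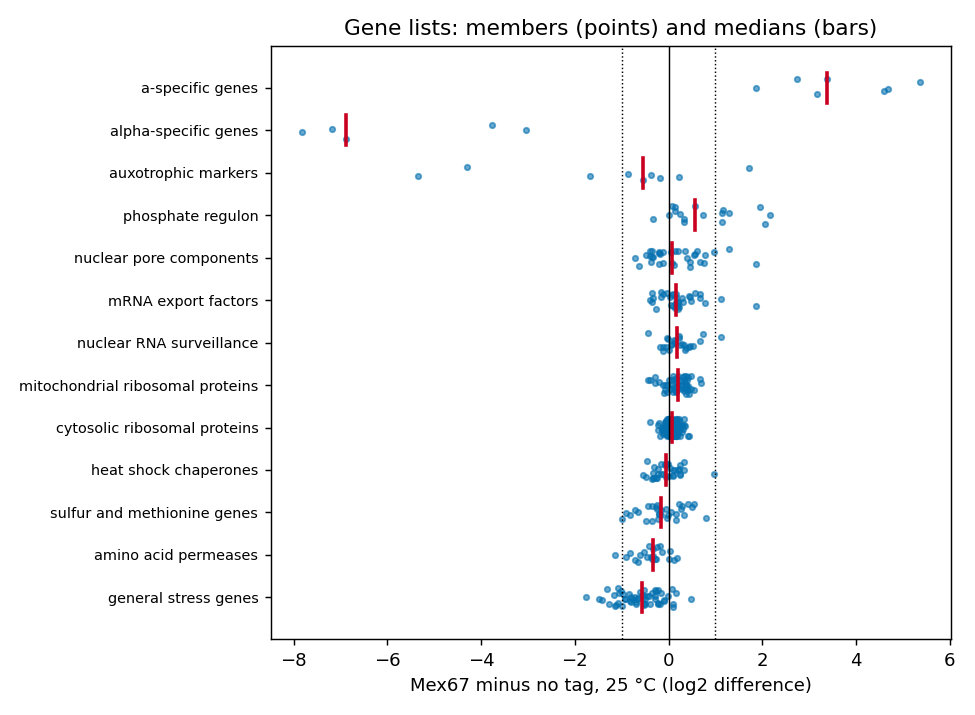
Log2 differences, Mex67 minus no tag at 25 °C, of the members of chosen gene lists (points), with each list's median marked and lines at 0 and at 2-fold. The a-specific and alpha-specific genes stand at the ends with medians of 3.39 and -6.88. The phosphate regulon has a median of 0.56 and the general stress genes one of -0.56, and most other lists drawn centre near 0.

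The remaining 23 loci that were at least 2-fold higher belonged to none of the lists, and the lists gave them no common theme. YNL146C-A had the largest difference of them, at 8.75 with Mex67 and 5.63 without a tag. It lies near MFA2, with YNL146W, at -0.29, between them. GYP8, a GTPase activator of Rab proteins, lies beside STE2 and was at 11.42 with Mex67 and 9.99 without a tag. Of the 14 loci directly beside an a-specific gene, 10 lay above 0 and GYP8 alone was counted, while BST1, on the other side of STE2, was at -0.67. KAR1, a spindle pole body protein needed for nuclear fusion, was at 11.62 with Mex67 and 10.03 without a tag, and its neighbour SWT21 was at 11.15 with Mex67 and 9.86 without a tag. Over the 155 measured loci directly beside a counted one, 6 were themselves counted, or 3.87%, beside 1.4% of all loci above the floor. They are the 3 pairs GYP8 and STE2, KAR1 and SWT21, and YCL068C and HMLALPHA1, and the last pair went in opposite directions.

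Several of the 23 act on RNA. NAF1, an assembly factor of the H/ACA particles that modify RNA, was at 13.22 with Mex67 and 11.86 without a tag, and it lay at 13.42 with Npl3. CEF1, a splicing factor of the Prp19 complex, was at 10.78 with Mex67 and 9.62 without a tag, and SWT21 has also been tied to splicing. EAP1, which binds the cap-binding translation factor eIF4E, was at 12.09 with Mex67 and 11.01 without a tag. RNP1, with RNA-binding motifs, was at 5.77 with Mex67 and below the floor without a tag, so that against the floor its difference was at least 0.67, which is short of 2-fold. Each of these 4 mRNAs lay higher with Npl3 than without a tag as well, but the Npl3 and Mex67 differences share the same control array. Nor was this particular to the 4. The median of Npl3 minus no tag at 25 °C was 1.29 over the 23 loci, beside -0.08 over all loci above the floor.

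Others of the 23 act in the cell cycle or in transcription. FKH2, a forkhead regulator of genes for mitosis, was at 11.24 with Mex67 and 10.08 without a tag. SLD3, a factor that starts DNA replication, differed by 1.00, NBP1, which helps to duplicate the spindle pole body, by 1.05, and ZIP1, a protein of the meiotic synaptonemal complex, by 1.05. MED7, a subunit of Mediator, differed by 1.13, ASF2, which affects silencing, by 1.02 and HMS2, which resembles heat shock transcription factors, by 1.20. BUD5, the exchange factor that marks the bud site, was at 9.54 with Mex67 and 8.43 without a tag. YCL068C, whose probe set matches several transcripts, differed by 1.31, and others were ACK1 at 1.23, ROF1 at 1.23, SLO1 at 1.15 and SAP1, an ATPase of the AAA family, at 1.11.

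On the lower side, general stress genes were the list with the most counted members. These are the mRNAs that the transcription factors Msn2 and Msn4 raise in many kinds of stress, and in cells growing in rich medium they are held low by protein kinase A. All 55 listed genes were measured, 12 were at least 2-fold lower with Mex67 and 0 were higher, and 50 lay below 0 around a median of -0.56. In all loci above the floor, 2658 of 5632 lay below 0, with 0.657% at least 2-fold lower and 0.746% higher. Part of this list's members had been seen as low in these arrays before the list was drawn up, so its count is not independent evidence of their direction.

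GSY1, a glycogen synthase, was at 10.05 with Mex67, 10.14 with Npl3 and 11.47 without a tag, a difference of -1.42. TSL1, a subunit of trehalose synthase, was at 9.99 with Mex67, 10.41 with Npl3 and 11.31 without a tag. PGM2, a phosphoglucomutase, was at 10.81 with Mex67, 10.48 with Npl3 and 11.82 without a tag. In these 3 genes, whose products act on glycogen, trehalose or sugar phosphates, the no tag array had the highest level. The difference of PGM2 was -0.98 with the coding length trend removed. SOL4, a 6-phosphogluconolactonase, had the largest difference of the list, at 8.26 with Mex67 and 10.03 without a tag. GLC3, the glycogen branching enzyme, lay just short of the threshold at -0.98.

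Other counted members encode proteins of the cell surface or protective proteins. SPI1, a cell wall protein, was at 10.43 with Mex67, 11.39 with Npl3 and 11.92 without a tag, and YGP1, a secreted glycoprotein, was at 12.43 with Mex67, 13.48 with Npl3 and 13.49 without a tag. HSP12, which stabilizes the plasma membrane, was at 10.46 with Mex67, 11.37 with Npl3 and 11.62 without a tag. CTT1, the cytosolic catalase, was at 8.95 with Mex67 and 10.08 without a tag. TMA10, which associates with ribosomes, was at 9.25 with Mex67, 12.25 with Npl3 and 10.37 without a tag. The Npl3 array lay above the no tag array for TMA10 and level with it for YGP1, but mostly it lay lower. Over the 12 counted stress genes the median of Npl3 minus no tag at 25 °C was -0.87. It was -0.44 over the whole list of 55, beside -0.08 over all loci above the floor. Low values against the no tag array were thus not particular to Mex67, and both differences share that control array. The difference was -1.27 for MSC1, -1.09 for RTC3 and -1.09 for GAD1, glutamate decarboxylase. The 5 members above 0 were FMP45 at 0.47, PHM7 at 0.15, PAI3 at 0.09, USV1 at 0.09 and STF2 at 0.06. The heat shock chaperones did not follow the stress list: of 34, 0 were counted either way and 14 lay above 0, with a median of -0.06, HSP26 at 0.97 and BTN2 at -0.55.

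The 16 lower loci outside the stress, mating and marker lists included GLN1 and DIP5, described above. GID11 and GID10, substrate receptors of the GID ubiquitin ligase, which degrades gluconeogenic enzymes, were at -1.44 and -1.09. ADR1, the activator of genes for growth without glucose, was at 9.77 with Mex67 and 10.81 without a tag. Metal and redox enzymes among them were FRE7, a metal reductase, at -1.29 and SRX1, sulfiredoxin, at -1.11. TPO4, a polyamine transporter, was at 11.30 with Mex67 and 12.32 without a tag, and ASH1, a repressor in daughter cells whose mRNA travels to the bud tip, was at 11.41 with Mex67 and 12.41 without a tag. KRE5, needed for beta-1,6-glucan of the cell wall, was at 10.51 with Mex67 and 11.59 without a tag. The others were FMP48 at -1.36, AIM17 at -1.32, YRO2, a membrane protein related to Hsp30, at -1.08, YPC1, a ceramidase, at -1.06, YNL194C at -1.02 and YDR182W-A at -1.02.

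The mRNAs that make up the bulk of the message in growing cells lay at similar levels in both precipitates. Of 130 measured cytosolic ribosomal protein genes, 0 were counted, and all lay between -0.41 for RPS14B and 0.44 for RPL31B, with a median of 0.07. At 42 °C the same list had a median of -1.65 and 111 members at least 2-fold lower with Mex67, beside 5.79% of all loci above the floor there. The labelling spikes of that pair also lay far apart, with medians of 5.01 with Mex67 and 6.64 without a tag. Genes of ribosome biogenesis had 45 of 64 above 0 and a median of 0.12, with RRS1 at 0.70 and NOP10 at 0.63. Mitochondrial ribosomal proteins had 45 of 56 above 0 and a median of 0.21, with MRPL33 at 0.68 and MRPL19 at 0.66. Glycolysis had a median of -0.07 over 18 genes, translation factors 0.02 over 36, the proteasome -0.03 over 33, nuclear genes of respiration -0.13 over 35 and intron-containing genes 0.05 over 69. Cell wall genes had a median of -0.17 over 39, the iron regulon -0.11 over 20, hexose transporters -0.04 over 16, zinc and copper genes -0.14 over 12 and histones 0.16 over 10. In each list of this paragraph, 0 members were at least 2-fold higher or lower at 25 °C. The same was so for the measured members of 3 lists of copy-variable loci, which often differ between strains. These were 21 of 42 listed genes near telomeres, 10 of 11 of the DUP240 family and 3 of 8 for sodium pumps and asparaginases. Their medians were -0.12, -0.10 and -0.08, and nothing is known here of the members not measured.

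The 42 °C arrays show which of the 79 differences were also there in a second pair of precipitates of the same strains. Of the 42 higher loci, 33 were at least 2-fold higher with Mex67 at 42 °C too, which is 78.6% of the 25 °C loci and 8.38% of the 394 at 42 °C. Leaving out the mating and marker lists, 25 of 33 were, or 75.8%, against 6.97% of all loci above the floor at 42 °C. On the lower side 9 of 37 recurred, or 24.3%, but 8 of the 9 were mating or marker genes. Leaving those out, 1 of 28 recurred, against 5.79% of all loci. Recurrence was thus more frequent among the higher loci than among the lower ones, and since the strains were the same in both pairs, strain and precipitated protein cannot be told apart in it. The 42 °C pair is also the one whose labelling spikes lay far apart, and the part of this in the recurrence was not tested.

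Phosphate genes at least 2-fold higher at both temperatures numbered 5 of 7. PHO11 was at 12.02 with Mex67 and 10.07 without a tag at 42 °C, SPL2 was at 11.06 with Mex67 and 9.01 without a tag, and PHO89 was at 11.35 with Mex67 and 9.62 without a tag. PHO84 was at 14.52 with Mex67 and 13.44 without a tag at 42 °C, and PHO5 was at 11.73 with Mex67 and 10.71 without a tag. VTC3 and PHM6 were higher by 0.60 and 0.96 there, so all 7 kept their sign. PHO3, the member below 0 at 25 °C, was at least 2-fold lower at 42 °C.

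NUP42, NUP100 and NAB3 were at least 2-fold higher at both temperatures. NUP42 was at 11.22 with Mex67 and 9.22 without a tag at 42 °C, a difference of 2.00 beside 1.87 at 25 °C. NUP100 was at 13.53 with Mex67 and 11.48 without a tag at 42 °C, and NAB3 was at 13.20 with Mex67 and 11.36 without a tag. NUP116, under the threshold at 25 °C, differed by 1.88 at 42 °C, and AIR2, SAC3 and NAB2 by 1.29, 1.09 and 1.07. The genes next to NUP42 did not share its difference at 25 °C, with HST4 at -0.34 and MSS116 at 0.33.

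Of the 23 higher loci in no list, 17 were at least 2-fold higher at 42 °C. SAP1 differed by 2.17 there, EAP1 by 1.97, ASF2 by 1.94, ACK1 by 1.91 and BUD5 by 1.84, each more than at 25 °C. NAF1 was at 1.53, SLD3 at 1.58, FKH2 at 1.38, KAR1 at 1.33 and CEF1 at 1.30. The loci whose difference was not repeated at 42 °C were HMS2 at 0.33, YAR066W at -0.06 and SLO1 at -0.40, while ZIP1 at 0.93, ROF1 at 0.90 and NBP1 at 0.84 came close to the threshold. The coding length of the 26 higher loci outside the phosphate, mating and marker lists had a median of 1486.5 bp, beside 1231.5 bp over all loci above the floor.

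The stress genes did not recur. Of the 12 that were at least 2-fold lower at 25 °C, 0 were so at 42 °C, 8 had the opposite sign there, and their median was 0.24. TSL1 was at 14.53 with Mex67 and 13.77 without a tag at 42 °C, GSY1 was at 12.07 with Mex67 and 11.61 without a tag, and CTT1 was at 11.13 in both. HSP12 was at 14.82 with Mex67 and 15.03 without a tag at 42 °C, both close to the highest values on the arrays. In the whole list of 55 the 42 °C median was -0.02, where 3 members were at least 2-fold higher and 7 lower. KRE5 was the lower locus outside the mating and marker lists that recurred, at 10.64 with Mex67 and 11.78 without a tag. With the coding length trend removed, the 25 °C difference was -0.92 for KRE5, -0.88 for ADR1 and -0.99 for ASH1, all short of 2-fold. ADR1, FMP48 and TPO4 lay at least 2-fold lower at 25 °C and at least 2-fold higher at 42 °C.

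**Figure D4:**
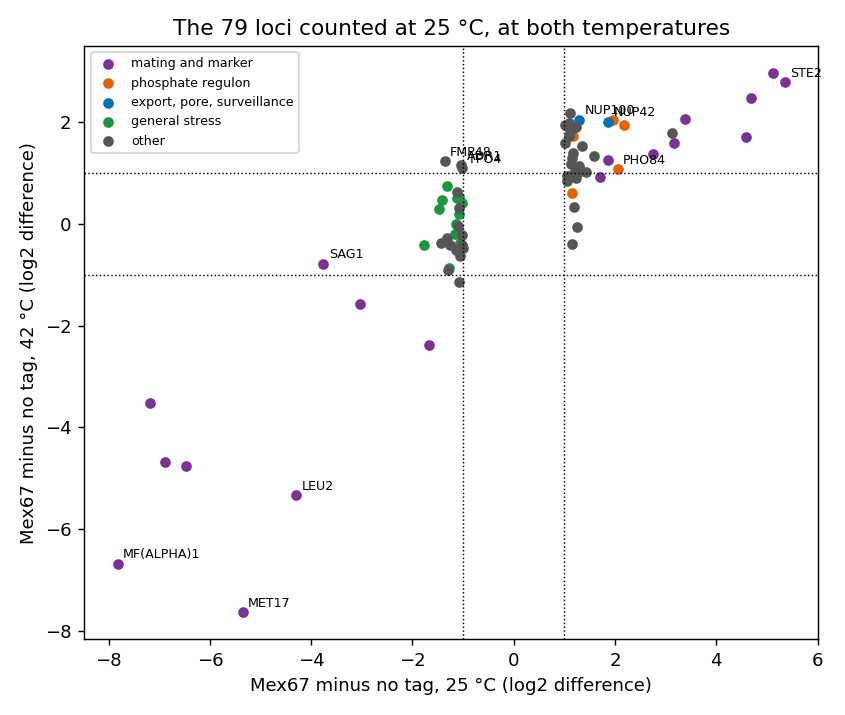
Log2 difference, Mex67 minus no tag, at 42 °C (vertical axis) against the same difference at 25 °C (horizontal axis) for S. cerevisiae loci, 1 array per group. Of the 42 loci at least 2-fold higher at 25 °C, 33 are so at 42 °C as well, while of the 37 lower ones 9 are, and the 12 stress genes spread around 0 on the vertical axis.

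The a-specific and alpha-specific genes kept their sides at 42 °C with smaller differences. HMRA2, at -0.96 at 25 °C, was at 0.14 at 42 °C. At least 2-fold higher there were all 7 a-specific genes, whose median was 1.70, and 4 of 5 alpha-specific genes were at least 2-fold lower, around a median of -3.52. STE2 was at 11.90 with Mex67 and 9.12 without a tag, and STE6 was at 10.63 with Mex67 and 8.93 without a tag. SAG1 was at 10.93 with Mex67 and 11.71 without a tag, which left it inside the threshold. The markers MET17 and LEU2 differed more at 42 °C, by -7.64 and -5.33, URA3 by -2.37 and HIS3 by 0.92.

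The differences at 25 °C varied little with a gene's chromosome and length. The medians of the 16 chromosomes lay between -0.03 and 0.09. In 5 classes of equal size by coding length, shortest first, the medians were 0.13, 0.06, 0.03, -0.02 and -0.11, so shorter mRNAs lay slightly higher with Mex67, and across the 5612 loci with a length, which are not independent, the rank correlation was -0.20. At 42 °C the order was the other way, with -0.12 in the shortest class and 0.17 in the longest. In 5 classes by mean level, the SD of the difference was 0.55 in the lowest class, 0.56 in the next and 0.28 in the highest. The lowest class held 14 of the higher and 12 of the lower counted loci, and the highest class held 2 of each. Counted loci were thus more frequent in the classes of low mean level. These are not the same as dim probe sets, since a locus high on 1 array and low on the other has a lowered mean. MET17, at 6.49 with Mex67 and 11.85 without a tag, is such a locus. Of the 3064 loci at or above the median of at least 1 array, 21 were at least 2-fold higher and 23 lower, beside 42 and 37 of 5632.

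Probe sets that the array carries for reporter sequences also differed between the precipitates. Of 47, 20 were above the floor at 25 °C, and 4 were at least 2-fold higher and 6 at least 2-fold lower with Mex67. Of all S. cerevisiae loci above the floor, 0.746% were higher and 0.657% lower. Several of these probe sets share an identifier, so they are not separate members. All the lower ones but RPTR-Sc-U46493-1_s_at carry J01347, and both M62653 probe sets are among the higher ones. The files give these probe sets identifiers and no names. RPTR-Sc-M62653-1_s_at was at 10.95 with Mex67, 3.80 with Npl3 and 3.40 without a tag, and RPTR-Sc-M62653-1_at was at 9.93 with Mex67, 4.13 with Npl3 and 4.10 without a tag. RPTR-Sc-AF292560-1_s_at was at 10.70 with Mex67, 3.95 with Npl3 and 3.70 without a tag. These 3 probe sets had signal above the floor on the Mex67 array and were below it on the Npl3 and no tag arrays. Against the floor they were higher by at least 5.86, 4.84 and 5.61 on the log2 scale, and at 42 °C they were at 11.30, 10.01 and 11.27 with Mex67. Of the lower ones, RPTR-Sc-J01347-3_at was at 7.31 with Mex67, 13.01 with Npl3 and 12.87 without a tag, and RPTR-Sc-U46493-1_s_at was at 6.76 with Mex67, 11.10 with Npl3 and 11.61 without a tag. The Npl3 and no tag arrays lay close together in these last probe sets, and the Mex67 array lay apart.

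**Figure D5:**
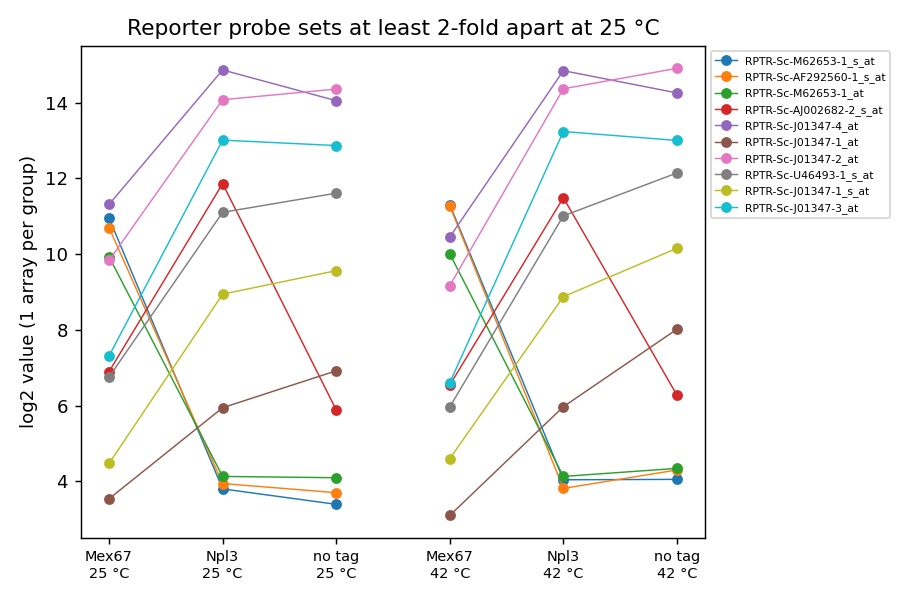
Log2 levels of the reporter probe sets that differed at least 2-fold between the Mex67 and no tag precipitates at 25 °C, on the Mex67, Npl3 and no tag arrays at both temperatures, 1 array per point. The 3 probe sets with the largest positive difference lie between 9.93 and 11.30 on the Mex67 arrays and below the floor on the other arrays.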

How the data were processed

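RNA from 6 precipitates was hybridised to 1 array each. The values the authors deposited are log2 values, called normalized in the deposit, and their similar distributions are read as scaling between arrays. The submitters' processing notes name the R package affy. Its version and how background was corrected and arrays were normalized were not given in the sources used here. What a trend with length means is unsure, since the labels name a kit for labelling the 3′ end and a manual for whole transcripts. A column's strain number gave its sample's strain, and its letters were read as heat stress at 42 °C (S) or none (US), which the labels leave unexplained.

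Of 10928 probe sets, 5716 were for S. cerevisiae, and those of 1 locus were averaged. For 83 loci every probe set matched several transcripts. Names came from the RefSeq table of assembly R64. Differences of log2 values were computed in Python 3.11.15 with pandas 2.3.3, and the calculation was tested on simulated data. With 1 array per group no test was made, and the number of arrays limits the precision. The named genes were MEX67 and NPL3, every counted locus except 1 that is not reported here, every measured member of the mating and marker lists, the 5 highest and 5 lowest export, pore and surveillance genes, genes beside a counted locus, and among the 4 largest differences of other lists. Further phosphate, stress and other list members were named after their values were seen. The gene lists, the threshold and the members were chosen with earlier results of these data known. Alternatives were other floors, scalings, trends and a fold of 1.5. Promoter motifs were not analysed here.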

Additional observations from a re-analysis of the deposited data

Results flagged for a closer look

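ADR1, FMP48 and TPO4 lay on opposite sides at the 2 temperatures: the difference, Mex67 minus no tag, was -1.04 at 25 °C and 1.15 at 42 °C for ADR1, -1.36 and 1.23 for FMP48, and -1.02 and 1.10 for TPO4. With 1 array per group, whether these differences between temperatures exceed the spread between precipitations was not tested. Reporter probe sets, which no comparison of genes uses, had signal on the Mex67 array at 25 °C above that of the control: RPTR-Sc-M62653-1_s_at was at 10.95 with Mex67 and 3.40 without a tag, RPTR-Sc-AF292560-1_s_at at 10.70 with Mex67 and 3.70 without a tag, RPTR-Sc-M62653-1_at at 9.93 with Mex67 and 4.10 without a tag, and RPTR-Sc-AJ002682-2_s_at at 6.90 with Mex67 and 5.89 without a tag. The last of these was at 11.86 with Npl3.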

How the results depend on the processing

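A floor at the median of each array left 3064 loci, of which 21 were at least 2-fold higher and 23 lower, and at a fold of 1.5 the counts were 330 higher and 258 lower. Without a floor, or with the arrays centred on S. pombe, they were 42 and 37, after quantile normalization 40 and 40, with the coding length trend removed 44 and 40, and with the level trend removed 41 and 42. Leaving out loci that match several transcripts gave 39 and 36. Short of 2-fold were KRE5, ADR1, ASH1, PGM2 and PHM6 with the length trend removed, ASF2 and SLD3 after quantile normalization, and SLD3 with the level trend removed. Under these scalings no single locus moved by more than 0.20, so the list medians could not move far, and this is no check of them. With the coding length trend removed, the median went from -0.56 to -0.66 for general stress genes and from 0.56 to 0.53 for the phosphate regulon. Medians near 0 are less settled. That of histones went from 0.16 to 0.01, that of cytosolic ribosomal proteins from 0.07 to -0.02 and that of intron-containing genes from 0.05 to -0.04. No paired analysis was possible because each group has 1 array, so that the groups compared share fewer than 2 replicate numbers. Signal over background limits the lowest probe sets, and no alternative stands in for a repeat of the precipitation.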
